A study of Saccharomyces cerevisiae with 12 samples.

Results

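The genes described here encode the nuclear part of the respiratory chain and the ATP synthase of *Saccharomyces cerevisiae*. They comprise the NADH dehydrogenases, complexes II, III and IV, cytochrome c, assembly factors of complex IV, the ATP synthase and its inhibitor. A gene was taken when the symbol annotated to its probe set was on a fixed list of 52 names, and all 52 were found, each with 1 probe set, among 5667 features that cover 5449 named genes. RNA came from the laboratory strain BY4741 (MATa), which carries deletions in *HIS3*, *LEU2*, *MET15* (*MET17*) and *URA3*, and from the same background with *COM2* deleted (*com2*Δ). *COM2* encodes a zinc finger transcription factor. Mid-exponential cells of both strains were moved to fresh glucose minimal medium (MMB, pH 3.5, with methionine, leucine, histidine and uracil), with 0 or 0.5 mM SO2, and harvested after 60 min. The design therefore holds 4 groups of 3 biological replicates, hybridised to 12 Affymetrix Yeast Genome 2.0 arrays, and *com2*Δ is represented by 1 deletion strain.

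Yeast has no complex I. A single internal enzyme, Ndi1, and external enzymes, Nde1 and Nde2, oxidise NADH and pass electrons through coenzyme Q to complex III, then through cytochrome c to complex IV, which reduces oxygen. The proton gradient made by complexes III and IV drives the ATP synthase. In glucose-grown yeast this system is known to be held low by glucose repression, and the Hap2/3/4/5 complex is known to activate many of its nuclear genes when that repression eases.

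Intensity medians of the arrays lay between 1673 and 1868, and with 3 arrays a group the number of arrays sets the precision. The deletion was checked by its own probe set: *COM2* read 3366 ± 443 (SD, n = 3) in wild-type controls and 10.5 ± 1.32 in *com2*Δ controls. Probe sets for the deleted *LEU2*, *MET17* and *URA3* read up to 152.5 on any array, and this highest value was taken as a background level. It was a *LEU2* reading on *com2*Δ SO2 replicate 2, whereas *MET17* read at most 17.8 and *URA3* at most 39.4. The level therefore rests on the *LEU2* probe set and is a cautious one. *HIS3*, whose allele in this strain is a partial deletion, read 5517 or more and was not used for it. Of the 52 respiratory genes, 3 had an array at or below it, *CYC7* and *NDE2* on 4 arrays each and *COX23* on 2. Some arrays stood apart within their group. Among *com2*Δ controls, replicate 3 had 41 of the 52 genes above both other replicates, and over all 52 genes it lay above their mean by a median of 0.30 on the log2 scale, whereas replicate 1 had 35 genes below both others (median -0.20). With SO2, *com2*Δ replicate 2 had 35 genes below both others (median -0.17) and wild-type replicate 2 had 32 above both (median 0.11). Wild-type control replicate 3 stood apart in both directions, with 23 genes above and 23 below both others (median -0.03). Over all features its median absolute log2 deviation from its replicates, 0.25, was the largest of any array. The main counts and medians that use *com2*Δ control replicate 3 are given below with and without it. So are single genes of the 52 whose 2-fold call changed without it. Counts by role and for smaller lists are given with all arrays only.

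RNA levels of most respiratory genes were lower with SO2 in wild-type cells. Changes were tested with limma on log2 intensity across all features, and a call asked for a 2-fold change, an unadjusted p under 0.05 and a false discovery rate under 10%. These limits were taken from the study's methods, whose further conditions on detection calls and on the lower bound of the fold were not applied. By that rule 9 of the 52 genes were called lower and 0 higher, beside 8.36% of all features called lower and 10.5% called higher. By the adjusted p under 0.05 alone (Benjamini-Hochberg over all features), 33 genes were lower and 4 higher, beside 29.6% and 30.0% of all features. Without wild-type control replicate 3, 35 genes were lower and 4 higher by that limit. The median log2 fold change of the 52 genes was -0.56, with quartiles of -0.87 and -0.27, whereas all features had a median of 0.00 and quartiles of -0.45 and 0.47. Every SO2 array lay below every control array for 36 of the 52 genes and above for 4. Of all 5667 features, 1763 lay below and 1794 above in that way. In RNA from a whole culture, fewer cells that carry a transcript and less of it per cell cannot be told apart.

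In *com2*Δ cells, 47 of the 52 genes did not pass the adjusted p at the same dose and time. The median log2 fold change was 0.05, against 0.01 over all features. *COX20* was the only gene of the 52 called at 2-fold, and it was higher, beside 3.14% of all features called higher and 2.74% called lower, so 1 of 52 is not above the share of all features. By adjusted p alone, 4 genes were higher and 1 lower, beside 14.0% and 14.9% of all features. Without *com2*Δ control replicate 3 the same 5 passed and 4 more were higher, *CYC1* (log2 0.56), *RIP1* (0.51), *QCR7* (0.36) and *ATP7* (0.31), with adjusted p from 0.0341 to 0.0469.

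**Figure D1:**
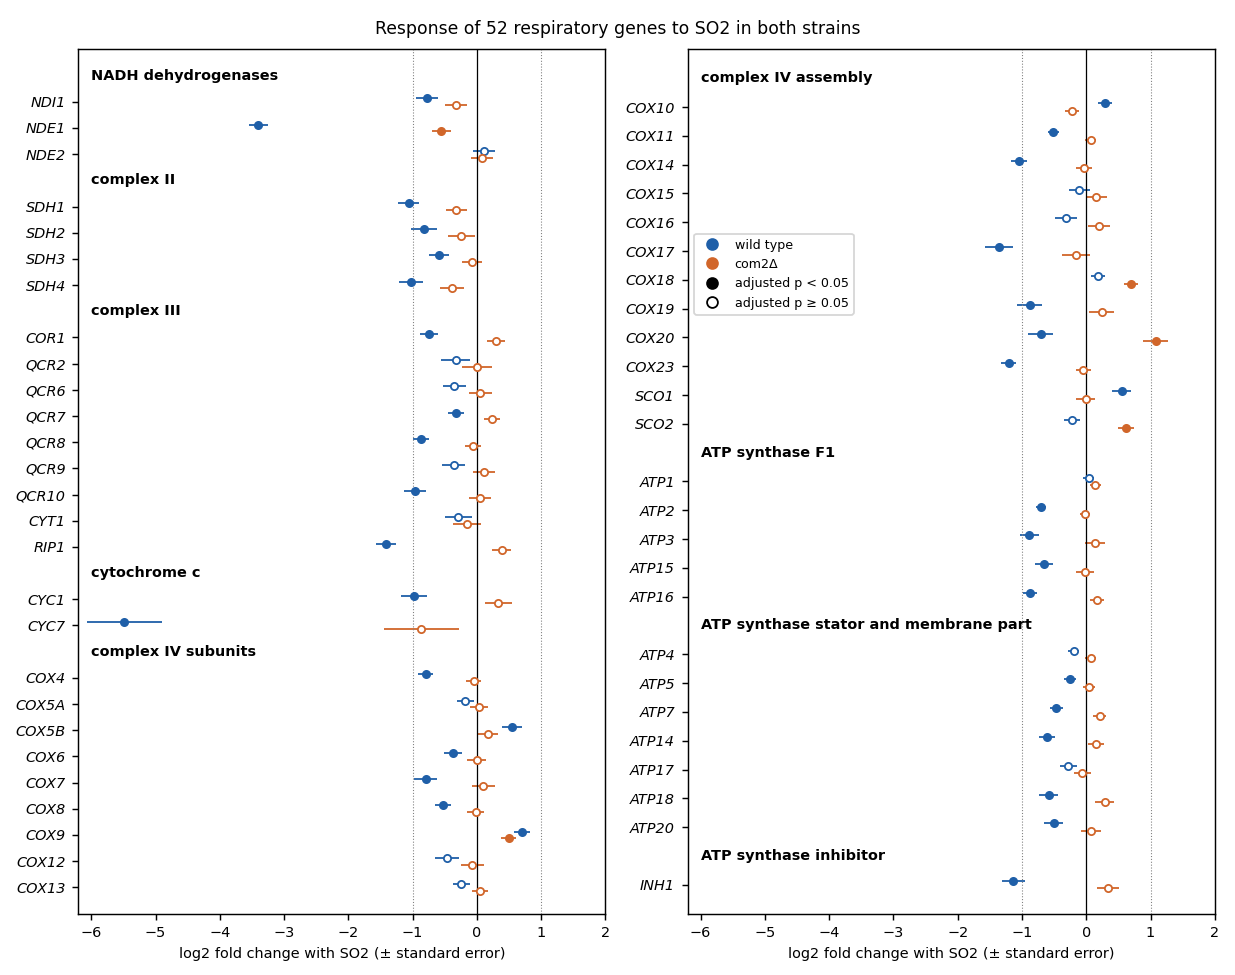
Log2 fold change with SO2 (x axis, ± standard error from limma) of each of the 52 genes by role, in wild type (blue) and *com2*Δ (orange), with filled points for an adjusted p under 0.05 and dotted lines at a 2-fold change. In wild type 45 of the 52 points lie below 0, and in *com2*Δ 21 do.

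The NADH dehydrogenases differed among themselves. *NDE1* (YMR145C), the external enzyme that oxidises cytosolic NADH, read 5409, 6496 and 7173 in wild-type controls and 534, 654 and 607 with SO2. In *com2*Δ it read 4624, 5649 and 5099 without SO2 and 2893, 3642 and 3992 with it. All SO2 arrays lay below the control arrays of their own strain, and the wild-type SO2 arrays lay far below every other array. *NDE1* thus fell 10.6-fold in wild type (log2 -3.41, SE 0.15, adjusted p = 3.36e-08), which placed it 19 from the bottom of the 5667 features. In *com2*Δ it fell 1.47-fold (log2 -0.55, SE 0.15, adjusted p = 0.0158), and it was the only respiratory gene that was lower in both strains by adjusted p. That *com2*Δ value was -0.48 (adjusted p = 0.0697) without control replicate 2 and -0.42 (adjusted p = 0.0709) without SO2 replicate 1.

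*NDI1* (YML120C), which oxidises NADH on the matrix side, read 1294, 1623 and 1896 in wild-type controls and 883, 897 and 991 with SO2, with no overlap. The *com2*Δ arrays read 1044, 1417 and 1391 without SO2 and 1030, 853 and 1188 with it. Its log2 fold change was -0.78 (SE 0.17, adjusted p = 0.00205) in wild type and -0.33 (adjusted p = 0.171) in *com2*Δ, where the groups overlapped. The difference of those responses was 0.45 (SE 0.24, adjusted p = 0.144). *NDE2* (YDL085W), the second external enzyme, read 236, 163 and 187 in wild-type controls and 194, 209 and 223 with SO2, and these overlapped (log2 0.11, adjusted p = 0.608). In *com2*Δ it read 147, 119 and 135 without and 166, 109 and 155 with SO2. All *com2*Δ control arrays and 1 of the *com2*Δ SO2 arrays lay below the background level of 152.5, so the size of a strain difference was not measured. The fitted value under SO2 was -0.56 (adjusted p = 0.0143), and with every intensity raised to the background level it was -0.40 (adjusted p = 0.0139). Without SO2 the raised values differed by -0.34 (adjusted p = 0.223).

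All 4 genes of complex II, succinate dehydrogenase, fell in wild type by adjusted p, beside 29.6% of all features. In each of the 4 the SO2 arrays lay below the control arrays. Such a separation was common, found for 1763 of all 5667 features. *SDH1*, the flavoprotein subunit, went from 1678 ± 441 to 788.8 ± 84.9 (SD, n = 3; log2 -1.06, SE 0.16), and *SDH4*, a membrane anchor, from 4947 ± 326 to 2503 ± 786 (log2 -1.03, SE 0.19). The iron-sulfur subunit *SDH2* changed by -0.83 and the second anchor *SDH3* by -0.59 on the log2 scale. In *com2*Δ the values of the 4 genes ran from -0.39 for *SDH4* to -0.08 for *SDH3*, and none passed the adjusted p with all arrays. For *SDH1* and *SDH4* the *com2*Δ SO2 arrays also lay below the *com2*Δ control arrays, as for 1307 of all 5667 features. The *com2*Δ value of *SDH1* passed without wild-type control replicate 3 (adjusted p = 0.0472). That of *SDH4* passed without wild-type SO2 replicate 2 (adjusted p = 0.0343). *SDH1* alone of the 4 had a difference of responses that passed it (0.74, SE 0.23, adjusted p = 0.0239).

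Complex III, the cytochrome bc1 complex, had 5 of 9 genes lower in wild type by adjusted p, beside 29.6% of all features. All 9 genes had values below 0. *RIP1* (YEL024W), the Rieske iron-sulfur protein, read 2561, 2903 and 2983 in wild-type controls and 946, 1210 and 1030 with SO2. In *com2*Δ, *RIP1* read 2143, 2531 and 3024 without SO2 and 3601, 2768 and 3660 with it. Only wild-type SO2 arrays were low, and the *com2*Δ groups overlapped. *RIP1* fell 2.66-fold in wild type (log2 -1.41, SE 0.15, adjusted p = 1.63e-05), its value in *com2*Δ was 0.38 (adjusted p = 0.082), but 0.51 and past the test without control replicate 3 or without SO2 replicate 2, and under SO2 it was 3.14-fold higher in *com2*Δ cells than in wild-type cells.

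Among the other complex III genes, the small subunits *QCR10* (log2 -0.96) and *QCR8* (-0.87), the core subunit *COR1* (-0.74) and the small subunit *QCR7* (-0.32) fell. The remaining 4, *QCR2*, *QCR6*, *QCR9* and the cytochrome c1 gene *CYT1*, had values between -0.36 and -0.29, with overlapping arrays and adjusted p from 0.0896 to 0.255. With all arrays, no gene of the complex passed the adjusted p in *com2*Δ, and the 9 values ran from -0.15 for *CYT1* to 0.38 for *RIP1*. *COR1* went from 4484 ± 911 to 2657 ± 337 in wild type and from 4252 ± 350 to 5232 ± 125 in *com2*Δ (SD, n = 3). Its difference of responses was 1.05 (SE 0.20, adjusted p = 0.0019).

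Yeast has a pair of cytochrome c genes, *CYC1* for the main isoform and *CYC7* for the isoform known to be favoured at low oxygen. *CYC7* (YEL039C) read 679, 1608 and 814 in wild-type controls and 21.4, 24.2 and 19.2 with SO2. In *com2*Δ it read 242, 691 and 1102 without SO2 and 509, 136 and 442 with it. The 3 wild-type SO2 arrays were below the background level of 152.5, as was replicate 2 of *com2*Δ with SO2, and both *com2*Δ groups scattered widely and overlapped. Set against that background level, *CYC7* was at least 6.31-fold lower with SO2 in wild type. The fitted log2 value was -5.48 (SE 0.58, adjusted p = 1.31e-05), the lowest of the 5667 features, though its size lies below what the background level lets the arrays measure. In *com2*Δ the value was -0.86 (adjusted p = 0.292), and it was -1.48 when *com2*Δ control replicate 1 was left out, which made it a call.

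*CYC1* (YJR048W) read 1988, 2056 and 2735 in wild-type controls and 1217, 1056 and 1132 with SO2. The *com2*Δ arrays gave 1672, 2289 and 3115 without SO2 and 3247, 2439 and 3014 with it. Every wild-type SO2 array was lower than every other array of the set. *CYC1* fell 1.97-fold in wild type (log2 -0.98, SE 0.21, adjusted p = 0.00168), just short of the 2-fold limit, and its value in *com2*Δ was 0.33 (adjusted p = 0.25), or 0.56 (adjusted p = 0.0469) without control replicate 3.

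**Figure D2:**
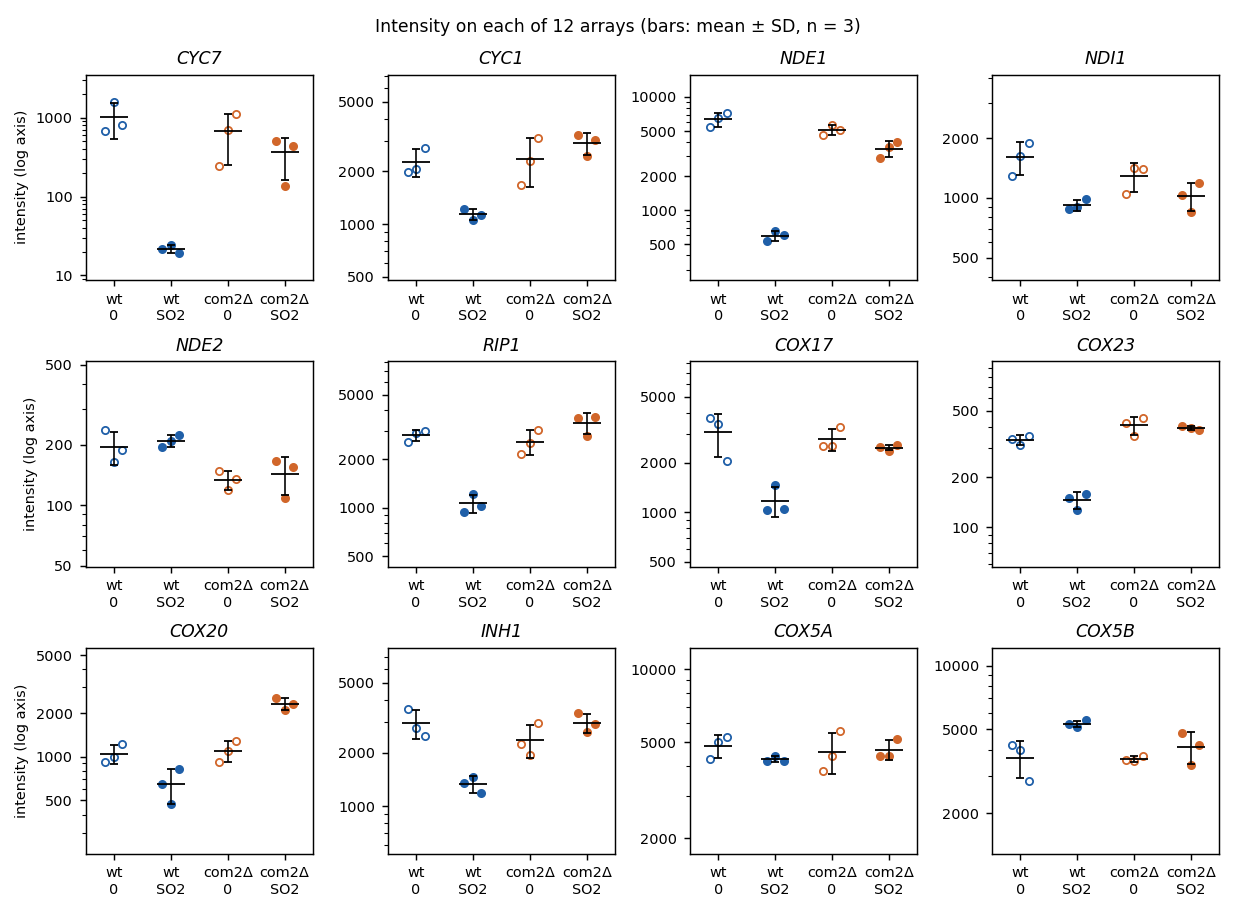
Intensity (log axis) of 12 respiratory genes on each array, by strain (wild type, wt, blue; *com2*Δ, orange) and medium (0, open; 0.5 mM SO2, filled), with bars for the mean ± SD of 3 replicates. The wild-type SO2 arrays are the lowest of the 4 groups for *CYC7*, *CYC1*, *NDE1*, *RIP1*, *COX17*, *COX23*, *COX20* and *INH1*, whereas *COX5B* is highest there.

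The nuclear-encoded subunits of complex IV, cytochrome c oxidase, moved in both directions in wild type. By adjusted p, 4 of 9 fell, namely *COX4* (log2 -0.80), *COX7* (-0.80), *COX8* (-0.53) and *COX6* (-0.37), and 2 rose, *COX9* (0.70) and *COX5B* (0.55). Over all features 29.6% fell and 30.0% rose, so the 2 that rose are not above their share. No subunit reached a 2-fold call. *COX9*, a small subunit, had an adjusted p of 0.000492 in wild type with every SO2 array above every control array, and it also rose in *com2*Δ (log2 0.49, adjusted p = 0.0117), the only respiratory gene that was higher in both strains. Without *com2*Δ control replicate 1 or SO2 replicate 1, that adjusted p was 0.0507 or 0.0513.

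Subunit V of the oxidase exists in an aerobic isoform, *COX5A*, and an isoform known to be favoured at low oxygen, *COX5B*. *COX5A* (YNL052W) read 4248, 4994 and 5227 in wild-type controls and 4177, 4377 and 4196 with SO2, which overlapped (log2 -0.18, SE 0.14, adjusted p = 0.286). In *com2*Δ, *COX5A* read 3808, 4361 and 5545 without SO2 and 4384, 4397 and 5147 with it, and these overlapped too. *COX5B* (YIL111W) read 4214, 3979 and 2830 in wild-type controls and 5280, 5129 and 5506 with SO2, so that every SO2 array was above every control array. It rose 1.46-fold (log2 0.55, SE 0.16, adjusted p = 0.01). In *com2*Δ, *COX5B* read 3560, 3542 and 3743 without SO2 and 4794, 3382 and 4219 with it, which overlapped, and its value was 0.18 (adjusted p = 0.429). The difference of its responses did not pass the test (log2 -0.37, adjusted p = 0.19). The isoforms said to be favoured at low oxygen, *CYC7* and *COX5B*, thus went in opposite directions in wild type.

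Assembly factors of complex IV also moved in both directions. In wild type 6 of 12 fell by adjusted p and 2 rose, and 3 were called lower at 2-fold. Over all features the shares were 29.6%, 30.0% and 8.36%, so the 2 that rose are not above their share. The called genes were the copper chaperone *COX17*, *COX23*, which encodes a protein of the intermembrane space with a related cysteine motif, and *COX14*, which acts in the synthesis and assembly of the Cox1 subunit. *COX17* (YLL009C) read 3733, 3414 and 2037 in wild-type controls and 1026, 1458 and 1040 with SO2. In *com2*Δ it read 2532, 2531 and 3276 without SO2 and 2500, 2354 and 2544 with it. Wild-type SO2 arrays were the only low ones, and *COX17* fell 2.56-fold there (log2 -1.35, SE 0.22, adjusted p = 0.000251), against -0.16 (adjusted p = 0.619) in *com2*Δ.

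*COX23* (YHR116W) read 338, 310 and 355 in wild-type controls and 150, 127 and 159 with SO2. Its *com2*Δ values were 420, 355 and 451 without SO2 and 405, 396 and 383 with it. Of the wild-type SO2 arrays, 2 lay at or below the background level, and set against that level *COX23* was at least 2.16-fold lower with SO2 (fitted log2 -1.21, SE 0.12, adjusted p = 6.07e-06). *COX14* went from 2278 ± 176 to 1098 ± 88.1 (SD, n = 3) in wild type, a log2 fold change of -1.05 (SE 0.12), and read 2544 ± 411 and 2470 ± 204 in *com2*Δ.

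*COX20* (YDR231C), a chaperone for the precursor of the Cox2 subunit, went opposite ways in the strains. It read 915, 995 and 1220 in wild-type controls and 646, 473 and 830 with SO2, and in *com2*Δ 922, 1098 and 1279 without SO2 and 2537, 2085 and 2303 with it. The arrays of the SO2 groups lay below the controls in wild type and above them in *com2*Δ. *COX20* fell in wild type (log2 -0.71, SE 0.20, adjusted p = 0.00876) and rose 2.11-fold in *com2*Δ (log2 1.08, SE 0.20, adjusted p = 0.0022). Without *com2*Δ control replicate 1 the *com2*Δ value was 0.96 and the 2-fold call was lost.

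*COX18*, which acts in the export of Cox2, and *SCO2*, a relative of the copper carrier *SCO1*, also rose in *com2*Δ by adjusted p (log2 0.69 and 0.62), and their wild-type values, 0.19 and -0.22, did not pass it. *SCO1*, which delivers copper to Cox2, and *COX10*, which makes the first intermediate of heme A, rose in wild type (0.55 and 0.29) and not in *com2*Δ (-0.01 and -0.22, both short of the test). *COX19*, of the intermembrane space, and *COX11*, a copper carrier for Cox1, fell in wild type (-0.88 and -0.51). *COX15*, the next enzyme of heme A synthesis, and *COX16* had values of -0.11 and -0.32 with overlapping arrays.

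In the F1 part of the ATP synthase, 4 of 5 genes fell in wild type by adjusted p, beside 29.6% of all features. The 4 genes were *ATP3* (gamma subunit, log2 -0.89), *ATP16* (delta, -0.87), *ATP2* (beta, -0.71) and *ATP15* (epsilon, -0.65). *ATP1*, which encodes the alpha subunit, read 15296 ± 1172 in controls and 15705 ± 772 with SO2 (SD, n = 3; log2 0.04, SE 0.09, adjusted p = 0.707). *ATP2* went from 11630 ± 566 to 7116 ± 215 and its arrays did not overlap. In *com2*Δ the 5 values lay between -0.02 and 0.16 and none passed the test.

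The stator and membrane part of the ATP synthase had 5 of 7 genes lower in wild type by adjusted p, beside 29.6% of all features. No gene of this part was called at 2-fold. *ATP14* (subunit h, log2 -0.61), *ATP18* (subunit i/j, -0.59), *ATP20* (subunit g, -0.51), *ATP7* (subunit d, -0.47) and *ATP5* (the oligomycin sensitivity subunit, -0.25) fell. *ATP17* and *ATP4*, with values of -0.28 and -0.19, had adjusted p of 0.0947 and 0.0575. In *com2*Δ the 7 values ran from -0.06 to 0.29 and none passed the test with all arrays.

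*INH1* (YDL181W), which encodes the inhibitor that blocks ATP hydrolysis by the synthase, read 3569, 2755 and 2510 in wild-type controls and 1352, 1467 and 1180 with SO2. The *com2*Δ controls read 2238, 1950 and 2944 and the *com2*Δ arrays with SO2 3369, 2619 and 2926. The wild-type SO2 arrays lay below all 9 others, and the *com2*Δ groups overlapped. *INH1* fell 2.19-fold in wild type (log2 -1.13, SE 0.18, adjusted p = 0.0002), and its value in *com2*Δ was 0.34 (adjusted p = 0.173).

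Of the 9 wild-type calls, 4 lay close to the 2-fold limit, and each kept an adjusted p of at most 0.00382 when it fell short of it. *SDH1* fell short of it without wild-type control replicate 3 (-0.86) or SO2 replicate 1 (-0.99), *SDH4* without control replicate 3 (-0.98), SO2 replicate 1 (-0.86) or SO2 replicate 3 (-0.95), *COX14* without SO2 replicate 2 (by less than 0.01) and *INH1* without control replicate 1 (-0.99). *CYC1* entered the calls without control replicate 1 (-1.07), control replicate 2 (-1.04) or SO2 replicate 1 (-1.03), and *QCR10* without control replicate 1 (-1.01) or SO2 replicate 2 (-1.03).

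**Figure D3:**
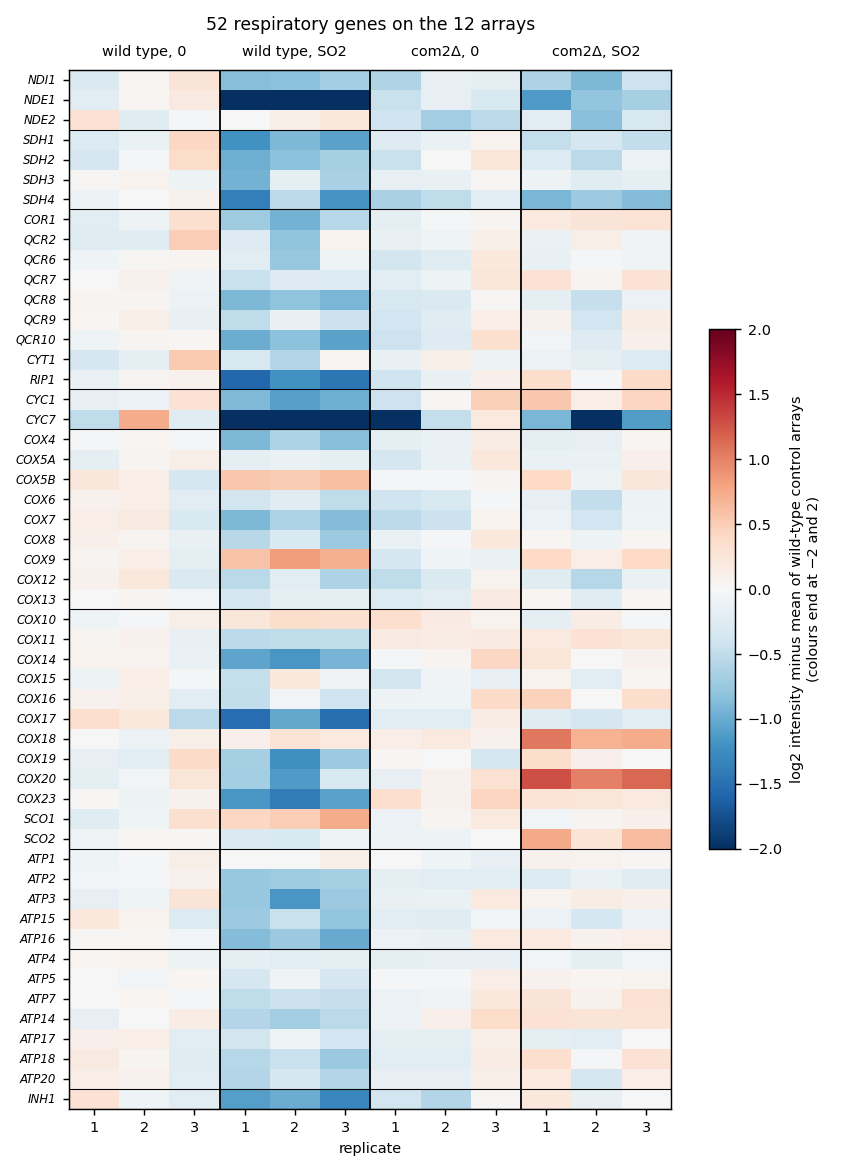
Log2 intensity of the 52 genes (rows, ordered by role) on the 12 arrays (columns), minus the mean of the wild-type control arrays, with colours that end at -2 and 2. The wild-type SO2 arrays have medians between -0.58 and -0.52, and the *com2*Δ SO2 arrays between -0.11 and 0.05.

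The wild-type SO2 arrays also stood lowest by the median of the 52 genes. Relative to the wild-type control mean, the median log2 value of the 52 genes was -0.58 to -0.52 on the wild-type SO2 arrays and -0.02 to 0.04 on the wild-type control arrays. It was -0.20 to 0.12 on *com2*Δ control arrays and -0.11 to 0.05 on *com2*Δ SO2 arrays. Among *com2*Δ controls, replicate 3 lay at 0.12 and the other 2 at -0.20 and -0.14. Without that replicate the median response of *com2*Δ was 0.10 in place of 0.05, and *COX20* remained the only call.

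Whether the strains responded differently was tested as the difference of their log2 fold changes (*com2*Δ minus wild type). By the 2-fold rule 14 of the 52 genes had a difference called above 0 and 0 below, beside 8.17% and 9.30% of all features. By adjusted p alone, 29 were above 0 and 2 below, beside 21.8% and 23.1%. The median difference was 0.59, against 0.01 over all features, and 47 of the 52 values were above 0. Of the 33 genes lower in wild type by adjusted p, 27 had a difference above 0 that passed the same limit, and 31 did not pass it in *com2*Δ. Of all 5667 features, whether or not lower in wild type, 4030 did not pass it in *com2*Δ. The difference uses the same wild-type arrays that picked these 33 genes, so the 27 are not a separate support. Without *com2*Δ control replicate 3 the median difference was 0.68 and 15 genes were called, and by adjusted p 32 were above 0 and 1 below. Leaving out wild-type control replicate 3 gave 30 above 0 and 2 below by adjusted p.

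The differences called at 2-fold, on the log2 scale, were led by *NDE1* at 2.85 (SE 0.21, adjusted p = 5.09e-06), *RIP1* at 1.80 (SE 0.22, adjusted p = 0.000126), *COX20* at 1.79 (SE 0.28, adjusted p = 0.000554), *INH1* at 1.47 (SE 0.25, adjusted p = 0.000909) and *CYC1* at 1.31 (SE 0.29, adjusted p = 0.00423). The fitted difference for *CYC7* was 4.62 (SE 0.82, adjusted p = 0.00121), but with every intensity raised to the background level it was 1.85 and no longer called (adjusted p = 0.121). *COX17* (1.19), *COX23* (1.16) and *COX19* (1.12) followed. With array weights, which give noisier arrays less weight, the *COX19* difference was 0.54 and not called. Close to the limit were *COR1* (1.05), *ATP16* (1.03), *ATP3* and *COX14* (both 1.02) and *QCR10* (1.01).

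All 5 genes close to the limit dropped under it without *com2*Δ control replicate 1, when values ran from 0.86 for *QCR10* to 0.99 for *ATP16* and 9 genes stayed called. With 1 array left out at a time, no lost value was under 0.86 or had an adjusted p over 0.0189, so it was the fold limit that these genes missed. They and *COX19* also lost the call without single other arrays. Without wild-type control replicate 3 the values were 0.89 for *COR1*, 0.99 for *QCR10*, 0.93 for *COX19* and 0.89 for *ATP3*, and without wild-type SO2 replicate 2 they were 0.95 for *COR1*, 0.96 for *COX14*, 0.95 for *COX19* and 0.88 for *ATP3*. Without *com2*Δ control replicate 2 they were 0.94 for *QCR10* and 0.97 for *COX14*, *ATP3* and *ATP16*. *QCR10* was also lost without wild-type control replicate 2 (0.98), SO2 replicate 1 (0.99) or SO2 replicate 3 (0.95), or *com2*Δ SO2 replicate 3 (0.92). *COX14* was lost without wild-type control replicate 1 (0.99) or 2 (0.99) or *com2*Δ SO2 replicate 1 (0.96), and *ATP16* without wild-type SO2 replicate 3 (0.96). *COX7* (0.90) entered the calls without wild-type control replicate 3 (1.05) or *com2*Δ control replicate 3 (1.08).

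By role, the differences that passed the adjusted p above 0 covered 5 of 9 complex III genes, both cytochrome c genes, 3 of 9 oxidase subunits, 8 of 12 assembly factors, 4 of 5 F1 genes, 4 of 7 stator and membrane genes, *INH1*, 1 of 3 NADH dehydrogenases and 1 of 4 complex II genes. Over all features the share was 21.8%, and the counts for complex II, the NADH dehydrogenases and the oxidase subunits lie near it. The differences below 0 belonged to *SCO1* (-0.56, SE 0.21, adjusted p = 0.0458) and *COX10* (-0.51, SE 0.15, adjusted p = 0.0204), which rose in wild type and did not pass the test in *com2*Δ. *SCO1* did not pass without *com2*Δ control replicate 3 (-0.49, adjusted p = 0.0943).

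Compared directly under SO2, *com2*Δ cells had 11 of the 52 genes called higher than wild type and 0 lower, beside 7.62% and 10% of all features. By adjusted p alone 33 were higher and 4 lower, beside 29.9% and 32.4%. The median was 0.53 on the log2 scale, against -0.01 over all features. This comparison uses the same SO2 arrays as the differences above and is not a separate support for them.

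*NDE1* was 5.83-fold higher in *com2*Δ under SO2 (log2 2.54, adjusted p = 3.09e-07), *COX20* had a log2 value of 1.86, *RIP1* 1.65, *COX23* 1.45, *CYC1* 1.35, *COX14* 1.17, *INH1* 1.15, *COX17* 1.09, *COX19* 1.02 and *ATP16* 1.01. With every intensity raised to the background level, *CYC7* was 2.13-fold higher in *com2*Δ and no longer called (adjusted p = 0.163). That step also raised *com2*Δ SO2 replicate 2, so 2.13-fold is not a lower bound. The 4 genes lower in *com2*Δ by adjusted p were *NDE2* (-0.40 with the background level as a floor), *SCO1* (-0.52), *COX9* (-0.39) and *COX10* (-0.32). *COX19* lost its call without wild-type SO2 replicate 2 (0.84) or *com2*Δ SO2 replicate 1 (0.92), with array weights (0.72) and with 16 added to each intensity (0.99), and *ATP16* without wild-type SO2 replicate 3 (0.94) or *com2*Δ SO2 replicate 1 (0.98). *COR1* (0.99) and *ATP3* (0.99), just under the limit, entered the calls without wild-type SO2 replicate 1, wild-type SO2 replicate 3 (1.07 for both) or *com2*Δ SO2 replicate 1, with *ATP3* at 1.06, 1.07 and 1.01.

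Without SO2, no respiratory gene was called between the strains. With limma 0 of the 52 were called in either direction at 2-fold, beside 0.353% of all features in each direction, and 0 passed the adjusted p, beside 0.618% higher and 0.547% lower. The median log2 value was -0.09, against -0.02 over all features, and 39 of 52 values were below 0. An unadjusted p under 0.05 was found for 4 genes, *NDE2* (-0.34 with the background floor), *SDH4* (-0.46), *ATP2* (-0.20) and *COX23* (0.28). Leaving out *com2*Δ control replicate 3 moved the median to -0.18 and still gave 0 calls.

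**Figure D4:**
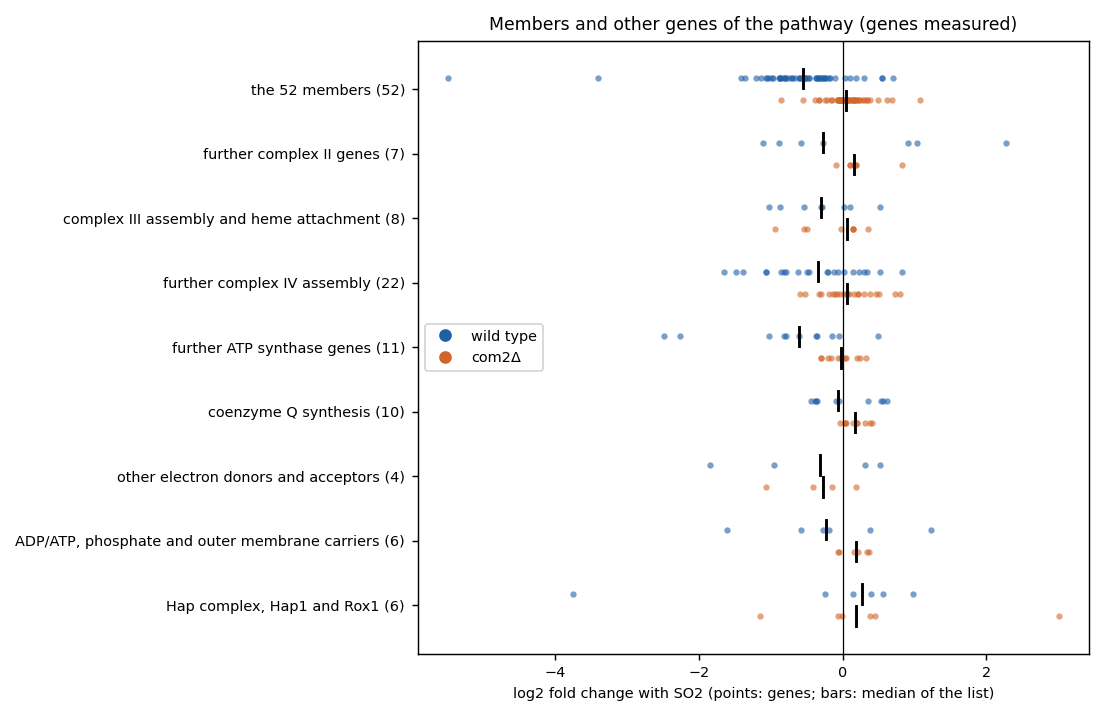
Log2 fold change with SO2 (x axis) of the 52 genes and of 8 further lists (y axis, with the number of genes measured), in wild type (blue) and *com2*Δ (orange), with black bars for the median of each list. The wild-type median is -0.56 for the 52 genes and -0.61 for the further ATP synthase genes, and the *com2*Δ medians of the same lists are 0.05 and -0.03.

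Further genes of the pathway, taken from lists of 82 names, were measured for 74. The mitochondrially encoded subunits were not analysed here. In wild type 13 of the 74 were called lower and 3 higher, beside 8.36% and 10.5% of all features, and by adjusted p 35 were lower and 16 higher, beside 29.6% and 30.0%, with a median log2 value of -0.28. In *com2*Δ 2 were called lower and 1 higher, beside 2.74% and 3.14%, and by adjusted p 7 were lower and 8 higher, beside 14.9% and 14.0%, so the shares of these genes were not above those of all features. The difference of responses was called above 0 for 11 and below 0 for 1, beside 8.17% and 9.30%. Leaving out *com2*Δ control replicate 3, it was called above 0 for 16, and by adjusted p 5 were lower and 6 higher in *com2*Δ.

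The further ATP synthase genes were mostly lower in wild type too. Of 11 further ATP synthase genes, 8 fell and 1 rose in wild type by adjusted p, beside 29.6% and 30.0% of all features. *STF2* and *STF1*, which encode small proteins that act with Inh1, went from 11522 ± 1642 to 2086 ± 524 (log2 -2.49, SE 0.25, adjusted p = 1.04e-05) and from 3727 ± 357 to 779.5 ± 63.9 (log2 -2.26, SE 0.20, adjusted p = 4.14e-06; SD, n = 3). In *com2*Δ their values were -0.30 and -0.16, which did not pass the test, and the differences of responses were 2.19 (SE 0.36) and 2.09 (SE 0.29). *ATP19*, subunit k of the membrane part, fell in wild type by 1.02 on the log2 scale.

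Of 22 further assembly factors of complex IV, 11 fell and 2 rose in wild type by adjusted p, and 5 were called lower. The shares of all features were 29.6%, 30.0% and 8.36%. *COA4*, a further protein of the intermembrane space, led with -1.65 (SE 0.26, from 583 ± 153 to 182.7 ± 32.1, SD, n = 3), followed by the copper-binding *CMC1* with -1.48 and *COA2* with -1.38. In *com2*Δ their values were -0.04, 0.02 and -0.53, none past the test. Of 8 genes for complex III assembly and heme attachment, 4 fell and 1 rose in wild type by adjusted p. The assembly factor *CBP4* was the only 2-fold call (-1.03), beside 8.36% of all features called lower. In *com2*Δ 2 of the 8 fell by adjusted p, *CYT2* (-0.53) and *CBP4* (-0.49). *CBP4* did not pass there without *com2*Δ control replicate 3 (adjusted p = 0.102). The median difference of responses of the 8 genes was 0.08, with 1 above 0 and 1 below by adjusted p.

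The further genes of complex II split. *SDH7* and *SDH5*, assembly factors of the complex, fell in wild type (log2 -1.11 and -0.89). *SHH4*, a paralogue of *SDH4*, rose from 636.4 ± 69.1 to 3112 ± 702 (SD, n = 3; log2 2.27, SE 0.28, adjusted p = 3.63e-05), while *SDH4* itself fell, and *TCM62*, a chaperone for the complex, rose by 1.03. The *SHH4* response was smaller in *com2*Δ (0.82, adjusted p = 0.045; difference of responses -1.45, SE 0.39, adjusted p = 0.0117). That value was 0.91 (adjusted p = 0.0565) without *com2*Δ control replicate 3.

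Coenzyme Q synthesis had 0 of 10 genes called at 2-fold in wild type, beside 10.5% of all features called higher and 8.36% lower, and 4 rose and 4 fell by adjusted p, beside 30.0% and 29.6%. Among the carriers, *AAC1* rose (1.23) and *AAC3* fell (-1.61) in wild type, both encoding minor ADP/ATP carriers, and the main carrier *PET9* fell by 0.28. *GUT2*, the mitochondrial glycerol 3-phosphate dehydrogenase, was called lower in both strains (-1.84 in wild type and -1.07 in *com2*Δ).

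Of the regulators, *HAP4*, the activating subunit of the Hap complex, was also called lower in both strains. It went from 5009 ± 1310 to 365.8 ± 54.4 in wild type (SD, n = 3; log2 -3.75, SE 0.19, adjusted p = 1.19e-07) and from 3917 ± 615 to 1761 ± 233 in *com2*Δ (log2 -1.15, SE 0.19, adjusted p = 0.00138). The difference of its responses was 2.60 (SE 0.27, adjusted p = 5.32e-05). *HAP2*, a DNA-binding subunit, and *HAP1*, a heme-responsive activator, rose in wild type (0.99 and 0.40). *ROX1*, a repressor of hypoxic genes, rose in *com2*Δ (3.01, SE 0.42, adjusted p = 0.000467), with 0.57 (adjusted p = 0.264) in wild type. The part of these regulators in the respiratory genes' values was not tested.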

How the data were processed

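The deposited table holds linear intensities for each probe set on 12 Affymetrix Yeast Genome 2.0 arrays in 4 groups of 3. Per the paper's methods, the authors took detection calls from Affymetrix software, normalised the arrays in dChip to an invariant set and computed expression indices from the perfect match probes alone. The submitters' notes name MAS5 with no role, so which of the 2 programs made the deposited intensities is not settled here. Either scales the arrays to each other, so a shift shared by all genes could be removed. The labels list more arrays than the methods and name another labelling kit. The labels' annotation gave 5716 probe sets, of which 5498 name 1 gene and 218 none. Symbols were updated through RefSeq for 12 genes, and for 47 genes with several probe sets the brightest by mean log2 intensity was used.

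Log2 intensities were fitted with limma 3.58.1 in R 4.3.3, with 1 mean per group over all 12 arrays (8 residual degrees of freedom) and moderated variances, and p-values were adjusted over all 5667 features by the Benjamini-Hochberg method. The script was tested on simulated data. Standard errors and p-values reflect the spread between the 3 replicates of each group, which the labels call biological. Groups came from the sample titles. No detection calls were used, so no feature was filtered. The respiratory genes and the further lists were chosen with earlier results of these data known. Array values were printed for the 6 called genes with the largest absolute log2 fold change in each comparison and for the isoform sets *CYC1* and *CYC7*, *COX5A* and *COX5B*, and *NDI1*, *NDE1* and *NDE2*, and up to 4 examples were named per role. Alternatives were a replicate block, quantile normalisation, centring on array medians, an offset of 16, removal of the dimmest 25% of features, fits on only the arrays compared, trended and robust moderation, array weights, all probe sets, other limits, each array left out and, chosen after seeing the data, a background floor. A search of promoters for motifs is not reported here, since no sequences were used.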

Additional observations from a re-analysis of the deposited data

Results flagged for a closer look

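These 14 respiratory genes were picked out because their log2 responses to SO2 differed between the strains (*com2*Δ minus wild type, limma on all features, at least 2-fold). The differences were 4.62 for *CYC7*, 2.85 for *NDE1*, 1.80 for *RIP1*, 1.79 for *COX20*, 1.47 for *INH1*, 1.31 for *CYC1*, 1.19 for *COX17*, 1.16 for *COX23*, 1.12 for *COX19*, 1.05 for *COR1*, 1.03 for *ATP16*, 1.02 for *ATP3*, 1.02 for *COX14* and 1.01 for *QCR10*. *COX20* was the only gene of these with a wild-type decrease and a *com2*Δ increase that both passed the adjusted p. The size for *CYC7* rests on wild-type SO2 arrays below the background level. Groups of 3 arrays were not tested for single outlying arrays.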

How the results depend on the processing

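The number of respiratory genes called depended on the fold limit. With the adjusted p alone, SO2 in wild type gave 4 higher and 33 lower, SO2 in *com2*Δ 4 higher and 1 lower, *com2*Δ against wild type under SO2 33 higher and 4 lower, and the difference of responses 29 above 0 and 2 below. With a 1.5-fold limit the counts were 1 higher and 26 lower in wild type, 3 higher in *com2*Δ, 25 higher for *com2*Δ under SO2 and 25 above 0 for the difference, beside 20.4% and 19.2%, 8.45%, 19.5% and 18.5% of all features at that limit. Array weights moved the medians to 0.15 in *com2*Δ, 0.68 for *com2*Δ under SO2 and 0.85 for the difference, and gave 1 gene (*CYC7*) lower in *com2*Δ without SO2. For the difference they lost *COX19* (0.54), *COR1* (0.90) and *ATP3* (0.92) and gained *COX7* (1.36), *ATP18* (1.17), *QCR8* (1.11) and *COX4* (1.05). Under SO2 they lost *COX19* (0.72) and gained *QCR10* (1.09), and in wild type *QCR10* (-1.03) and *COX7* (-1.02) entered. The estimate of the weights stopped before it reached its tolerance. The cause of these changes was not tested.

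Leaving out 1 array at a time gave 7 to 10 lower and 0 higher in wild type (median -0.60 to -0.49), 0 to 1 higher and 0 to 1 lower in *com2*Δ (-0.01 to 0.11), 10 to 13 higher for *com2*Δ under SO2 (0.48 to 0.63), 9 to 15 above 0 for the difference (0.52 to 0.68) and 0 calls without SO2 (-0.18 to -0.02). By adjusted p alone, *com2*Δ had 3 to 8 higher and 0 to 2 lower, the 8 without *com2*Δ control replicate 3, and the difference 23 to 32 above 0 and 0 to 2 below. Of single genes, *INH1* in wild type (-0.99) and *COX20* in *com2*Δ (0.96) each lost the 2-fold call without 1 control array, and *CYC7* lost it with the background floor for *com2*Δ under SO2 (1.09) and for the difference (1.85). Leaving out the dimmest 25% of features left 45 of the 52 genes, without *CYC7*, *COX19* and *COX23*, which are called in the main comparisons. No called value changed sign.

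Deviations of arrays with the same replicate number correlated between -0.31 and 0.47, with 7 of 18 pairs over 0.1. With different numbers they correlated between -0.54 and 0.44, with 11 of 36 over 0.1, so no pairing by number showed over all groups. Between wild-type and *com2*Δ controls, same-number pairs had 0.35, 0.24 and 0.10, and different-number pairs -0.27 to 0.07. A fit with the replicate number as a block gave 9 lower in wild type, 1 higher in *com2*Δ, 11 higher for *com2*Δ under SO2 and 14 above 0 for the difference. Dim signals limit *CYC7*, *NDE2* and *COX23*.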

Other observations

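Several genes that fell with SO2 in wild type encode small proteins of the intermembrane space with paired cysteine motifs, most of which act in assembly of complex IV. After their values were seen, 10 such genes were listed (*COX17*, *COX19*, *COX23*, *CMC1*, *CMC2*, *CMC4*, *COA4*, *PET191*, *COX12* and *COA6*), so the counts are a description without a test of the list. In wild type 5 of 10 were called lower and 7 were lower by adjusted p, beside 8.36% and 29.6% of all features, with a median log2 fold change of -0.97. The 3 that did not pass it were *COX12* (-0.46), *CMC4* (0.30) and *COA6* (0.23). In *com2*Δ 0 were called at 2-fold, 2 rose by adjusted p (*CMC4* at 0.80 and *COA6* at 0.46), and the median was 0.04. Under SO2, 7 of 10 were called higher in *com2*Δ cells than in wild-type cells, beside 7.62% of all features, and the difference of responses was called above 0 for 6, beside 8.17%, with a median of 1.14.

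Of the copper carriers of complex IV without that motif, *COX11* fell in wild type (-0.51), *SCO1* rose (0.55) and *SCO2* did not pass the test (-0.22). *PET191* went from 1316 ± 238 to 730.8 ± 152 in wild type (SD, n = 3; log2 -0.85) and read 1484 ± 310 and 1535 ± 104 in *com2*Δ. *CMC2* went from 1592 ± 450 to 757.7 ± 231 in wild type (log2 -1.07), and its difference of responses was 1.28.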
